A study of Mus musculus with 23 samples.

Results

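Whole-brain gene expression of adult male offspring was compared between a protein-restricted (PR) and a control (CD) maternal diet, with 4 mice per diet and 1 one-colour Agilent array per mouse. These are all 8 expression arrays that carry the PR or CD label, out of 12 expression arrays and 23 samples in the series. The 4 arrays of the folic acid-supplemented PR diet (FA) entered only the normalization, which ran over all 12 arrays, and the estimate of the spread. By weight, CD held 20% casein and PR 5%, with 0.02% folic acid in both, and FA held 5% casein and 0.1% folic acid. All mice were C57BL/6J males, killed at 19 weeks of age. They came from IVF embryos of parents on a stock diet and were carried by outbred ICR recipients, which ate the experimental diet from 1 month before embryo transfer until delivery. After cesarean section the pups went to ICR foster mothers, and from weaning every mouse ate CD. One passage of the study's text gives the foster mothers CD only, and another gives them 1 of the experimental diets. The mice had gone through a battery of behavioral tests, fear conditioning included, before cerebrum and cerebellum were collected as 1 tissue. The labels do not tie a mouse to its recipient mother or litter, so the 4 mice of a diet may share mothers and the p-values measure the spread between these mice.

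Protein restriction in pregnancy lowers the supply of amino acids to the fetus. Cells sense such a shortage through uncharged tRNA and the kinases that phosphorylate translation factor eIF2, which raises the transcription factor Atf4 and its targets, and through the mTOR pathway, which couples amino acids and insulin-like growth factors to protein synthesis. Effects that outlast the pregnancy have been sought in imprinted genes, DNA methylation, and chromatin, and in the neuronal and glial classes that form before birth. The arrays were taken long after the diet had ended and show the adult state of these genes.

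A gene was taken as measured when a probe was well above background on all 8 arrays, which held for 15390 of 22804 named genes, and its brightest such probe stood for it. Levels are log2 normalized intensities and differences are PR minus CD on the same log2 scale, each given with the SE of the fit (n = 4 mice per diet). Of 23 cell markers checked, 20 were measured in all 8 mice, including those of neurons, astrocytes, oligodendrocytes, microglia, endothelium, ependyma, choroid plexus, and cerebellum. The pituitary hormones Gh and Prl were well above background on the 4 CD arrays and on 0 PR arrays, and the blood marker Hbb-b1 had no named probe. The 4 CD arrays lay on 1 slide and the 4 PR arrays on another, and for every value given here diet and slide cannot be told apart. The PR slide was the brighter one, with 31266 to 33478 spots well above background against 27068 to 28458 on the CD slide and a mean net signal of negative controls of 42.7 to 51.2 against 28.1 to 34.8. The dimmest detected probe stood at 3.22 to 3.83 on the PR arrays and at 4.76 to 5.28 on the CD arrays (log2 normalized intensity). In PR replicate 1, all 5 probes of Y-linked genes were the lowest of the PR arrays, with Ddx3y at 10.4 against 11.53 to 11.62. The counts that lead the account of immediate early, ependymal, and unfolded protein response genes are therefore also given without it.

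In the PR brain, 2018 genes fell (13.1% of those measured) and 2415 rose (15.7%) at an adjusted p under 0.05. Called in the same direction under all 5 scalings of the arrays were 1624 lower genes (10.6%) and 1797 higher genes (11.7%), and the 4 PR and 4 CD values did not overlap in 4913 genes (31.9%). These shares are the background against which every gene list below is read. In every called gene given below with its 8 levels, the CD and PR mice did not overlap. Lower genes were 45.5% of the calls, and 55.9% (2888 lower, 2275 higher) after scaling to the 75th percentile. Where that scaling or 1 array left out moved the count of a list below by 2 or more genes and by over 1.5 times, the other count is given with it. This was not done throughout for the lists under Other observations. The differences were small, with a median of 1.22-fold over called genes, and 27 called genes were lower and 20 higher by 2-fold or more. The probes' base composition moved with the calls: in the 25% of genes with the lowest GC content of the probe, 14.3% were lower and 9.67% higher, and in the 25% with the highest, 11.7% and 19.4%. Its part in the calls was not tested.

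**Figure D1:**
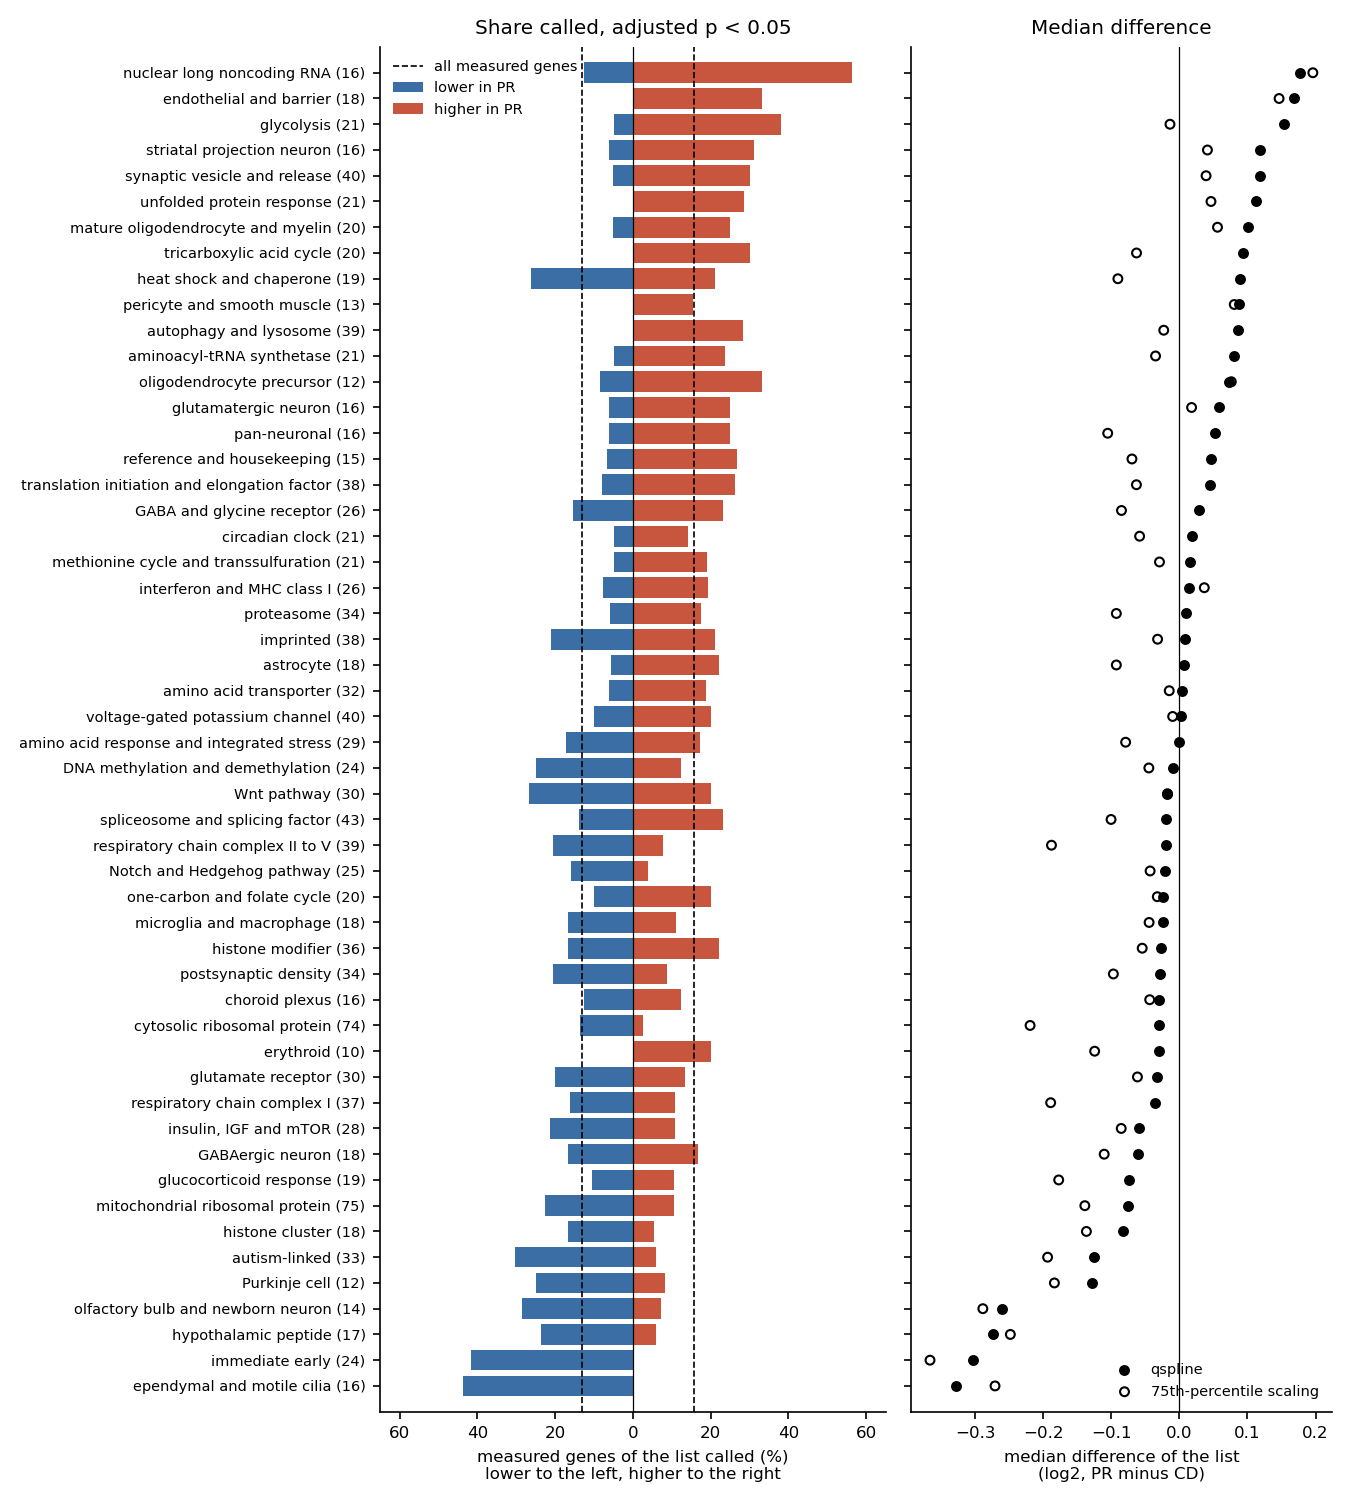
Counts and medians for the gene lists with at least 10 measured genes (number in parentheses). Left, the percent of each list's measured genes called lower (bars to the left) and higher (bars to the right) in PR, with dashed lines at the 13.1% and 15.7% of all measured genes. Right, the median log2 difference of each list, PR minus CD, as fitted and after scaling to the 75th percentile. Immediate early, ependymal, hypothalamic, and olfactory bulb genes stand on the lower side on both scales, and long noncoding RNA and endothelial genes on the higher side.

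Among called genes with a name other than a clone or predicted-gene name, without overlap between the diets and called under all 5 scalings, the largest falls were in Itgax, the CD11c integrin chain of myeloid cells (2.68-fold lower), H2-Eb2, a class II MHC gene (2.53-fold), and Foxo3, a transcription factor restrained by insulin and growth factor signaling (2.48-fold). Its probe lies at chr10:41905610-41905669 in mm9, the build the authors' files use. Foxo3 measured 6.23, 6.64, 6.22, and 6.17 in the CD mice and 5.21, 5.42, 4.95, and 4.44 in the PR mice. All 4 PR values lay below the lowest CD value, and the gene fell by 1.31 ± 0.19 (adjusted p = 6.2e-04). CD replicate 2 stood above the other CD mice. Itgax measured 6.18, 6.30, 6.40, and 6.25 in the CD mice and 5.09, 5.86, 4.37, and 4.12 in the PR mice, again without overlap, and fell by 1.42 ± 0.30 (adjusted p = 0.0060). The PR levels of both genes lay around the dimmest level detected on the CD arrays (4.76 to 5.28). The size of these 3 falls rests on the background correction: after normexp they measured -0.27 (Itgax), -0.23 (H2-Eb2), and -0.28 (Foxo3), still called, and the order of genes by size moved with it. Brighter genes among the 12 largest falls were the small nucleolar RNA Rnu3b1 (difference -1.14), the mast cell tryptase Tpsb2 (-1.07), Rnase10 (-1.15), and Lrp5, a Wnt coreceptor. Lrp5 was the brightest of them, with 11.77, 11.30, 10.76, and 11.02 in the CD mice and 10.29, 10.003, 10.20, and 10.16 in the PR mice, and fell by 1.05 ± 0.18 (adjusted p = 0.0019). The zinc transporter Slc30a2 (-1.19), the adaptor genes Sh3pxd2a (-1.21) and Frmd4b (-1.16), and the histone gene H4c8 (-1.05) were also among them. These falls shrank too. Under the scaling that gave the smallest fall, they were -0.27 (Slc30a2), -0.33 (Sh3pxd2a), -0.53 (Frmd4b), and -0.60 (H4c8). By the same measure, Rnase10 and Tpsb2 were at -0.73 and -0.77, and Rnu3b1 and Lrp5 at -0.99 and -0.98.

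By the same rule, the largest rise was in Slc51b, a subunit of the organic solute transporter (3.08-fold), which measured 6.60, 6.04, 7.71, and 6.49 in the CD mice and 8.41, 8.36, 8.83, and 7.74 in the PR mice. The gene rose by 1.62 ± 0.38 (adjusted p = 0.0093), although CD replicate 3 came within 0.03 of the lowest PR mouse, and it rose by 0.77 after normexp. Csn3, read at chr5:88361449-88361508 in mm9, encodes kappa-casein, a milk protein. It measured 12.01, 11.96, 11.86, and 11.03 in the CD mice and 12.99, 12.86, 13.04, and 12.77 in the PR mice and rose by 1.20 ± 0.20 (adjusted p = 0.0014). CD replicate 4 was the lowest CD mouse, and the lowest PR mouse still exceeded every CD mouse. Slc12a8, a transporter of the cation-chloride family, rose by 1.04 ± 0.12 (adjusted p = 1.7e-04), with levels of 11.60, 11.61, 11.88, and 11.28 in the CD mice and 12.55, 12.63, 12.82, and 12.54 in the PR mice. Its other measured probe differed by -0.19, in the opposite direction. Ms4a19 (1.06), Colca2 (1.28), the potassium channel gene Kcnc2 (1.34), and the dimmer genes Vmn1r87 (1.22), Prx (1.19), Masp2 (1.07), Amy2a5 (1.07), and Adgrg3 (1.03) made up the rest, apart from a probe annotated to Gcm1 (1.38). That probe maps to chromosome 7 in mm9, while the Gcm1 gene lies on chromosome 9, and another Gcm1 probe was called lower (-0.83), so its gene name is uncertain. Such a mismatch was present for 61 of 15356 measured genes. H2-Eb2, H4c8, Tpsb2, Vmn1r87, and Amy2a5 belong to families of similar copies that a probe may not separate. The sizes of dimmer rises also rested on the scaling. Under the scaling that gave the smallest rise, Vmn1r87 was at 0.40, Prx at 0.36, Masp2 at 0.33, and Amy2a5 at 0.45. By the same measure, Kcnc2 was at 1.26 and Csn3 at 1.16.

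**Figure D2:**
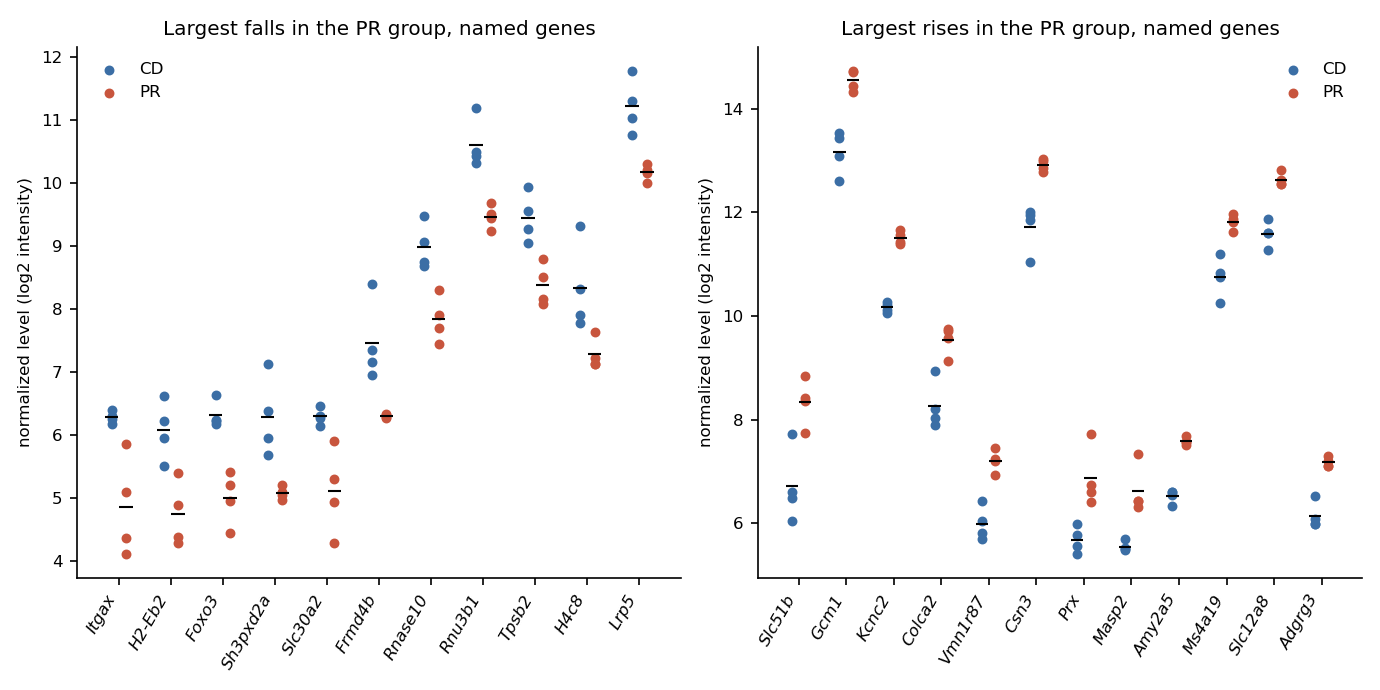
Levels of named genes with the largest called differences. Each point is the log2 normalized intensity of 1 mouse, with CD and PR mice in different colours and a line at the mean of each diet, for falls on the left and rises on the right. The 4 PR points lie on 1 side of the 4 CD points for every gene, as the rule for naming them required, and many of the genes lie between 5 and 7.

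Immediate early genes are switched on within minutes of neuronal activity through serum response factor, which binds CArG boxes, and CREB, which binds cAMP response elements (TGACGTCA). In the PR brain, 10 of the 24 measured genes of this list fell and 0 rose, against 13.1% and 15.7% of all genes, by limma at the adjusted limit (13 lower and 0 higher at an unadjusted p under 0.05, and 3 lower by the Tukey test of the methods). To show the windows searched, the 250 bases before the start site of 3 fallen genes are printed, from RefSeq on GRCm38.p6, for Egr2 (chr10:67537316-67537565, plus strand), Btg2 (chr1:134079156-134079405, minus strand), and Dusp1 (chr17:26508473-26508722, minus strand). Capitals mark the CArG box of Egr2, 72 bases before the start, and the cAMP response elements of Btg2 and Dusp1, 166 and 143 bases before it.
Egr2: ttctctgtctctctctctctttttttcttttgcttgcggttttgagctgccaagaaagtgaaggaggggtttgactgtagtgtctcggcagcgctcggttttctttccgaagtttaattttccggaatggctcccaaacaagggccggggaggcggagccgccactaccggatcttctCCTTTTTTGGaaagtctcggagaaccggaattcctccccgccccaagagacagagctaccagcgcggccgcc
Btg2: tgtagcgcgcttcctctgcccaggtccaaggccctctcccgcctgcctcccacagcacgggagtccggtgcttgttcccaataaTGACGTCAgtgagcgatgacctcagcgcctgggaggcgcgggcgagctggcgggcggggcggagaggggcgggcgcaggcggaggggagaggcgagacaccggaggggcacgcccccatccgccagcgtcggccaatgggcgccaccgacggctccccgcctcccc
Dusp1: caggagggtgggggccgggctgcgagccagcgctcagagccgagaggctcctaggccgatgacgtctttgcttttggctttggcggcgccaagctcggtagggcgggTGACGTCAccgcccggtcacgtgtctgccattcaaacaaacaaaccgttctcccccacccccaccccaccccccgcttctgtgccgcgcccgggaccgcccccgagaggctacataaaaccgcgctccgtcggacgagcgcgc

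Such matches were few: of the 20 list members with a promoter in the table, cAMP response elements were found in 2 and CArG boxes in 1, on either strand, against 2.95% and 1.42% of 11800 measured genes with a promoter. The activity-induced transcription factor Egr2 measured 9.998, 10.001, 10.15, and 9.94 in the CD mice and 9.52, 9.29, 9.10, and 9.30 in the PR mice, without overlap, and fell by 0.72 ± 0.22 (adjusted p = 0.031). Fos, a partner in the AP-1 complex, measured 11.01, 10.84, 11.06, and 11.21 in the CD mice and 10.48, 10.05, 10.27, and 10.63 in the PR mice. The highest PR mouse was below the lowest CD mouse, and Fos fell by 0.67 ± 0.21 (adjusted p = 0.036). Dusp1, a phosphatase that switches MAP kinases off, measured 11.89, 11.93, 11.94, and 11.90 in the CD mice and 11.50, 10.96, 11.49, and 11.62 in the PR mice and fell by 0.53 ± 0.18 (adjusted p = 0.044). Also lower were the orphan nuclear receptor Nr4a1 (-0.48), the Krüppel-like factors Klf2 (-0.59) and Klf4 (-0.41), the antiproliferative gene Btg2 (-0.59), Fosb (-0.45), Fosl2 (-0.45), and Jun (-0.26). Among defining members that did not pass, Egr1 differed by -0.32 ± 0.12 (adjusted p = 0.078), the synaptic gene Arc differed by -0.29 ± 0.25 (adjusted p = 0.42), and Npas4 differed by -0.54 ± 0.32 (adjusted p = 0.23). The list median was -0.30 against -0.0024 for all measured genes, 22 of 24 members had a negative difference, and the median ranged from -0.38 to -0.26 over all settings run. The level of each mouse, the mean over the list of its deviation from the 8-array mean, was 0.14 to 0.18 in the CD mice and -0.34 to -0.000771 in the PR mice. PR replicate 1 stood closest to the CD mice and PR replicate 2 farthest. The number of lower members was 4 without CD replicate 1, CD replicate 3, PR replicate 2, or PR replicate 3 and 6 without CD replicate 2 or CD replicate 4, and 8 without PR replicate 1. With the least favourable array left out, the adjusted p reached 0.078 for Egr2 (PR replicate 3), 0.088 for Fos (PR replicate 2), 0.096 for Dusp1 (PR replicate 2), 0.061 for Nr4a1 (CD replicate 1), 0.074 for Btg2 (PR replicate 2), 0.0502 for Fosb (PR replicate 3), and 0.099 for Jun (PR replicate 4), past the limit of 0.05. Under 1 or more of the 5 scalings, no call was made for Jun.

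**Figure D3:**
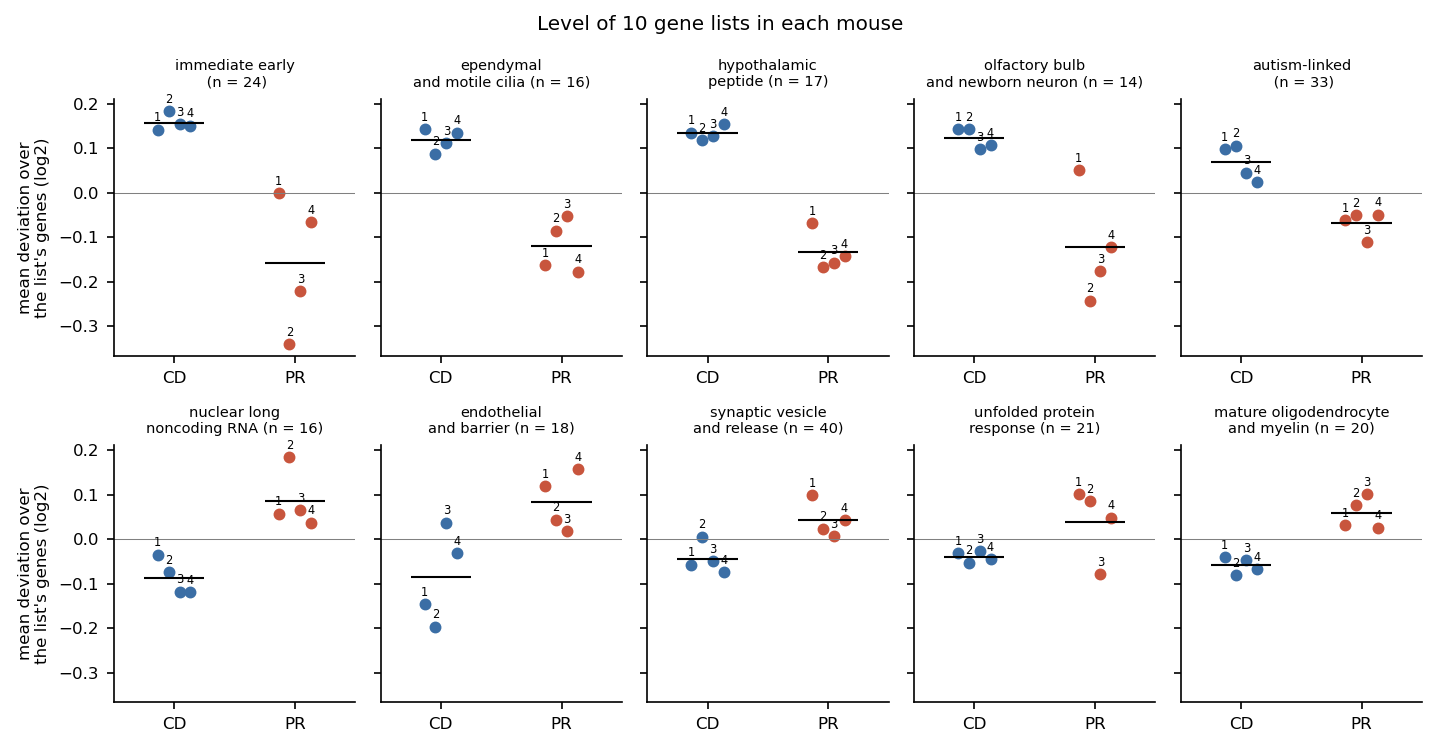
Level of each mouse in 10 gene lists. Each point is 1 mouse, plotted as the mean over the list's measured genes of its log2 deviation from the 8-array mean, numbered by replicate, with a line at the mean of each diet and n the number of genes. In the immediate early list the CD mice lie between 0.14 and 0.18 and the PR mice at or below 0.

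Ependymal cells line the ventricles and beat motile cilia that move cerebrospinal fluid. Of 16 measured genes of these cells, 7 fell and 0 rose, with 9 lower and 0 higher at an unadjusted p under 0.05 in limma and 4 lower by the Tukey test. Hydin, which encodes a central-pair protein of the cilium, measured 7.90, 8.05, 7.72, and 8.11 in the CD mice and 7.26, 7.29, 7.28, and 7.34 in the PR mice. No PR value reached the lowest CD value, and Hydin fell by 0.65 ± 0.12 (adjusted p = 0.0030). The axonemal genes Ccdc153 (-0.45), Cfap126 (-0.41), Rsph1 (-0.37), Enkur (-0.34), and Tekt1 (-0.32), and the membrane protein gene Tmem212 (-0.36), were lower as well. Ccdc153 measured 10.71, 10.69, 10.73, and 10.78 in the CD mice and 10.24, 10.35, 10.32, and 10.21 in the PR mice. Foxj1, the transcription factor that sets the motile cilia program, measured 10.26, 10.15, 10.25, and 10.25 in the CD mice and 10.09, 10.07, 10.02, and 10.03 in the PR mice and differed by -0.18 ± 0.08 (adjusted p = 0.14). Its groups did not overlap, but the difference did not pass. The list median was -0.33 and stayed within -0.35 to -0.16 under all settings, and the mouse levels were 0.09 to 0.14 in the CD mice and -0.18 to -0.05 in the PR mice. The count of lower members was 4 without PR replicate 4 and 5 without PR replicate 1. The median GC content of the list's probes was 36.7%, against 41.7% over all measured genes, and its part was not tested. An X-box element (GTTGCCAT, bound by RFX factors) was found on either strand in the promoters of 2 of 13 members, Mlf1 and Tekt1, and in 1.27% of all. In whole tissue, fewer ependymal cells and less RNA per cell cannot be told apart, and the same holds for every cell class here. Leaving out 1 array could raise the adjusted p to 0.057 for Ccdc153 (PR replicate 4), 0.057 for Tekt1 (PR replicate 4), and 0.074 for Tmem212 (PR replicate 4), past the limit of 0.05. The call was not made under all 5 scalings for Tekt1.

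Genes of hypothalamic peptides were also on the lower side, with 4 of 17 lower, 1 higher, and a median of -0.27 (-0.33 to -0.22 over all settings). Pmch, the precursor of the feeding peptide melanin-concentrating hormone, measured 12.14, 11.95, 12.03, and 11.93 in the CD mice and 11.45, 11.29, 11.50, and 11.44 in the PR mice and fell by 0.59 ± 0.09 (adjusted p = 6.4e-04). Every PR mouse was below every CD mouse. Trh, thyrotropin-releasing hormone, measured 11.19, 11.07, 11.08, and 10.96 in the CD mice and 10.60, 10.63, 10.72, and 10.62 in the PR mice and fell by 0.43 ± 0.13 (adjusted p = 0.032). The histamine enzyme Hdc (-0.27) and the reproductive peptide Kiss1 (-0.24) fell by less, and somatostatin (Sst) rose by 0.17 ± 0.05 (adjusted p = 0.029). Peptides of the hypothalamus with no call were orexin (Hcrt, -0.06, adjusted p = 0.58), vasopressin (Avp, -0.35, 0.21), oxytocin (Oxt, -0.51, 0.34), Pomc (-0.52, 0.11), Agrp (-0.65, 0.23), and Npy (0.15, 0.22). The pituitary, which hangs below the hypothalamus and may stay with a dissected brain, was read beside them. Its growth hormone gene Gh measured 7.83, 8.37, 7.73, and 7.82 in the CD mice and, not well above background, 2.25, 2.27, 3.09, and 2.84 in the PR mice, a level at least 19.8-fold lower (adjusted p = 5.5e-04). Prl, prolactin, measured 7.89, 7.84, 7.98, and 7.91 in the CD mice and, not well above background, 3.83, 3.08, 3.83, and 2.65 in the PR mice, at least 18.8-fold lower (adjusted p = 0.0056). For both hormones every PR value was below every CD value. Each bound was set against the dimmest level detected on the PR arrays (3.22 to 3.83) or the probe's own value where higher. The dimmest level on the CD arrays was higher (4.76 to 5.28), and against it the bounds would be smaller. Their size under the other scalings is not given here. Of 16 anterior pituitary genes, 7 were measured, Pomc among them, and 0 were lower and 0 higher by limma (1 and 0 at an unadjusted p under 0.05, 0 and 0 by the Tukey test), with overlapping mouse levels of 0.07 to 0.17 in the CD mice and -0.23 to 0.11 in the PR mice. Only genes well above background on all 8 arrays entered this count of pituitary genes. A gene lost on the PR arrays, like Gh or Prl, could not be counted as lower. The part of pituitary tissue in the hypothalamic differences was not tested. Lower peptide genes numbered 2 without CD replicate 2, CD replicate 3, PR replicate 1, PR replicate 2, or PR replicate 3. When 1 array was left out, the largest adjusted p was 0.078 for Trh (CD replicate 1), 0.088 for Hdc (PR replicate 1), and 0.071 for Sst (PR replicate 1), past the limit of 0.05. No call under 1 or more of the 5 scalings was obtained for Hdc and Sst.

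Newborn neurons of the olfactory bulb and hippocampus express Dcx, a microtubule protein of migrating cells. Of 14 measured genes of these neurons and of the olfactory bulb, 4 fell and 1 rose, with a median of -0.26 (-0.33 to -0.17 over all settings). Dcx measured 10.16, 9.87, 9.91, and 10.12 in the CD mice and 9.64, 9.69, 9.61, and 9.63 in the PR mice and fell by 0.37 ± 0.09 (adjusted p = 0.013). Eomes, a transcription factor of olfactory projection neurons and neuronal progenitors, measured 9.91, 10.20, 9.70, and 9.66 in the CD mice and 9.51, 9.03, 8.99, and 9.28 in the PR mice and fell by 0.66 ± 0.18 (adjusted p = 0.019), and its other probe was called lower too (-0.69). The interneuron transcription factors Dlx2 (-0.40) and Sp8 (-0.53) were lower and calretinin (Calb2, 0.27) higher, while Th, the enzyme of dopamine synthesis, differed by -0.25 (adjusted p = 0.28). Mouse levels were 0.10 to 0.14 in the CD mice and -0.24 to 0.05 in the PR mice, with PR replicate 1 nearest to the CD mice and PR replicate 2 lowest. Lower members of the list numbered 1 without PR replicate 3 and 2 without CD replicate 1, CD replicate 2, CD replicate 3, PR replicate 2, or PR replicate 4. Over the fits that left out 1 array, the adjusted p went up to 0.052 for Eomes (PR replicate 3), 0.072 for Dlx2 (CD replicate 1), 0.094 for Sp8 (PR replicate 3), and 0.11 for Calb2 (PR replicate 4), past the limit of 0.05. At least 1 of the 5 scalings gave no call for Sp8.

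Long noncoding RNAs of the nucleus and host transcripts of small nucleolar RNAs were mostly on the higher side: 9 of 16 rose (8 of them under all 5 scalings) and 2 fell (4 lower and 8 higher after scaling to the 75th percentile), with a median of 0.18 (0.14 to 0.29). Meg3, an imprinted RNA transcribed from the maternal allele, measured 13.97, 14.06, 13.89, and 13.95 in the CD mice and 14.69, 14.72, 14.43, and 14.60 in the PR mice. The groups did not overlap and Meg3 rose by 0.64 ± 0.07 (adjusted p = 1.0e-04). Its 2 other probes rose too, by 0.77 and 1.05. Mirg, transcribed from the same domain on chromosome 12, measured 11.46, 11.41, 11.36, and 11.30 in the CD mice and 12.02, 12.27, 11.94, and 11.92 in the PR mice and rose by 0.65 ± 0.08 (adjusted p = 3.1e-04). Snhg11, a small nucleolar RNA host gene of neurons, measured 14.13, 14.26, 13.97, and 13.85 in the CD mice and 14.88, 14.88, 14.61, and 14.75 in the PR mice and rose by 0.72 ± 0.09 (adjusted p = 2.9e-04), with its other probe at 1.24. Neat1, the scaffold of nuclear paraspeckles, rose by 0.39 ± 0.07 (adjusted p = 0.0030), and Malat1 differed by 0.16 (adjusted p = 0.35). Rises were also measured for Snhg7 (0.33), Snhg14 (0.33), Rmst (0.31), Snhg1 (0.19), and Peg13 (0.14). The exceptions were Kcnq1ot1, which silences its neighbours on the paternal allele, and Gas5. Kcnq1ot1 measured 9.04, 9.01, 8.76, and 8.72 in the CD mice and 8.01, 8.39, 8.11, and 8.35 in the PR mice and fell by 0.67 ± 0.12 (adjusted p = 0.0028). Gas5 fell by 0.16 ± 0.05 (adjusted p = 0.024) by its brightest probe, while its 2 other probes were called higher (0.87 and 0.91), so its direction is not settled. The highest adjusted p with 1 array left out was 0.085 for Peg13 (CD replicate 2), past the limit of 0.05. Under 1 or more of the 5 scalings, no call was made for Peg13.

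Imprinted genes, expressed from 1 parental allele and concerned with fetal growth, moved in both directions: 8 of 38 fell, 8 rose (8 lower and 5 higher after scaling to the 75th percentile), and the list median was 0.01. Grb10, an adaptor that damps insulin and IGF signaling, measured 8.07, 8.31, 7.97, and 7.76 in the CD mice and 7.24, 7.26, 7.20, and 7.23 in the PR mice and fell by 0.79 ± 0.11 (adjusted p = 4.0e-04). PR mice lay wholly below CD mice. The growth factor Igf2 measured 6.85, 7.07, 6.76, and 6.69 in the CD mice and 7.67, 7.27, 7.26, and 7.17 in the PR mice and rose by 0.50 ± 0.12 (adjusted p = 0.010), whereas Igf2r, the receptor that clears it, fell by 0.38 ± 0.06 (adjusted p = 0.0012). Ndn, of the Prader-Willi domain, rose by 0.43 ± 0.10 (adjusted p = 0.0088), and Magel2 of the same domain fell by 0.30 ± 0.10 (adjusted p = 0.043). The cell cycle inhibitor Cdkn1c fell by 0.30 ± 0.05 (adjusted p = 0.0024). Other falls were in Inpp5f (-0.54), Copg2 (-0.33), Mest (-0.20), and Kcnq1ot1, and other rises in Snrpn (0.36), Peg3 (0.35), Gnas (0.25), Peg13, Meg3, and Mirg. Peg3 and Gnas had other probes in the opposite direction, 1 of them called for Gnas (-0.50). Other probes of Mest differed by -0.03 and 0.135, neither called, and those of Snrpn by -0.08 (not called) and 0.54 (called). Lower imprinted genes numbered 4 without CD replicate 1 or PR replicate 3 and 5 without CD replicate 3 or PR replicate 4. With the least favourable array left out, the adjusted p reached 0.096 for Magel2 (CD replicate 2), 0.065 for Inpp5f (PR replicate 3), 0.12 for Copg2 (PR replicate 4), 0.053 for Mest (PR replicate 3), and 0.087 for Peg3 (PR replicate 1), past the limit of 0.05. The call was not made under all 5 scalings for Mest, Snrpn, Peg3, and Gnas.

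**Figure D4:**
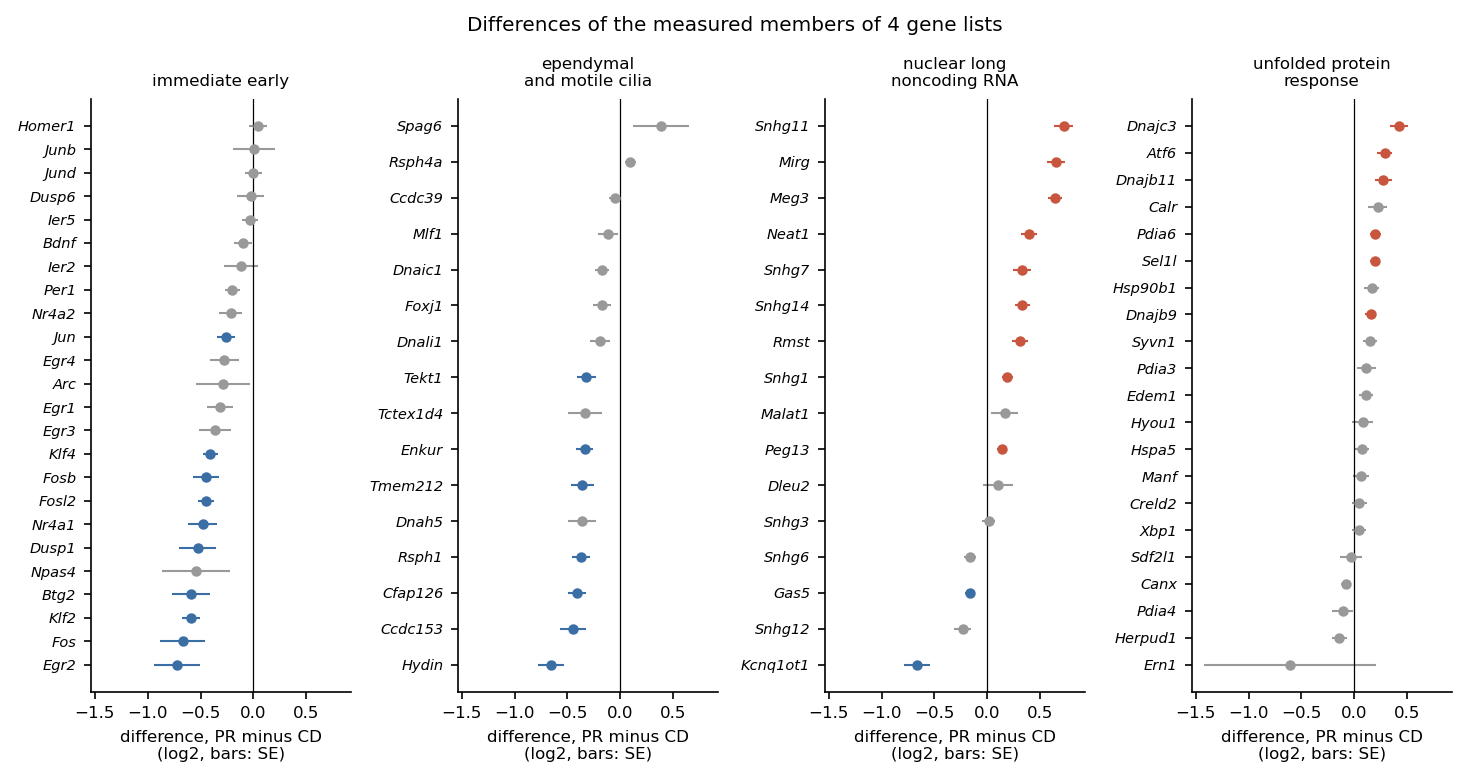
Differences of every measured member of 4 gene lists. Each point is a gene at its log2 difference, PR minus CD, with a bar of 1 SE, in colour where the gene was called at an adjusted p under 0.05 and grey where it was not. Immediate early and ependymal genes lie mostly below 0, and long noncoding RNA and unfolded protein response genes mostly above.

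Endothelial cells of brain vessels form the blood-brain barrier. Of 18 measured genes of these cells, 6 rose, all under all 5 scalings, and 0 fell, with 8 higher and 0 lower at an unadjusted p under 0.05 in limma and 4 higher by the Tukey test. Tek, the receptor of angiopoietins, measured 6.16, 6.09, 6.59, and 6.52 in the CD mice and 7.36, 6.96, 6.82, and 7.26 in the PR mice and rose by 0.76 ± 0.14 (adjusted p = 0.0031). Pecam1, an adhesion molecule of endothelial junctions, measured 7.15, 7.32, 7.38, and 7.62 in the CD mice and 7.83, 7.63, 7.72, and 7.84 in the PR mice and rose by 0.39 ± 0.09 (adjusted p = 0.011). Both genes were higher in all 4 PR mice than in any CD mouse. Occludin (Ocln) rose by 0.42 ± 0.11 (adjusted p = 0.017) by its brightest probe, with another probe at -0.21. The transporter Slco1a4 (0.32), Ly6c1 (0.32), and the TGF-beta coreceptor Eng (0.28) rose as well. The tight junction gene Cldn5 differed by 0.30 ± 0.11 (adjusted p = 0.059) and did not pass. The list median was 0.17 (0.13 to 0.22), and the mouse levels of -0.20 to 0.04 in the CD mice and 0.02 to 0.16 in the PR mice overlapped. In pericytes and smooth muscle, 2 of 13 genes rose and 0 fell (2 and 0 at an unadjusted p under 0.05 in limma, 2 and 0 by the Tukey test). The share is near the background. Rising were Rgs5, a pericyte signaling regulator, which rose by 0.57 ± 0.07 (adjusted p = 3.5e-04), and Cspg4 (0.34), and the pericyte receptor Pdgfrb differed by -0.09 (adjusted p = 0.35). Leaving out 1 array could raise the adjusted p to 0.067 for Eng (PR replicate 4), past the limit of 0.05.

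At the synapse, the release machinery had more higher than lower calls before scaling to the 75th percentile, and receptors and scaffolds were divided. Of 40 genes of synaptic vesicles and release, 12 rose (6 after scaling to the 75th percentile) and 2 fell (6), with a median of 0.12 (0.04 to 0.12). Nsf, the ATPase that recycles SNARE complexes, measured 14.70, 14.92, 14.90, and 14.84 in the CD mice and 15.19, 15.16, 15.17, and 15.19 in the PR mice and rose by 0.34 ± 0.06 (adjusted p = 0.0019). Rph3a, a Rab3 effector, rose by 0.32 ± 0.07 (adjusted p = 0.0090). Synapsin (Syn1) rose by 0.30 ± 0.05 (adjusted p = 0.0018), Snap25 of the SNARE complex fell by 0.15 ± 0.05 (adjusted p = 0.031), and the calcium sensor Syt1 differed by 0.05 (adjusted p = 0.78). Pclo, a giant scaffold of the active zone, measured 13.78, 13.77, 13.66, and 13.61 in the CD mice and 13.20, 13.44, 13.32, and 13.43 in the PR mice and fell by 0.36 ± 0.11 (adjusted p = 0.028), and its 3 other probes were negative too. Higher release genes numbered 7 without CD replicate 3, PR replicate 1, or PR replicate 4, and lower ones 0 without CD replicate 2. When 1 array was left out, the largest adjusted p was 0.081 for Snap25 (PR replicate 4) and 0.074 for Pclo (PR replicate 1), past the limit of 0.05. At least 1 of the 5 scalings gave no call for Syn1.

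Of 34 genes of the postsynaptic density, 7 fell and 3 rose (median -0.03, 12 lower and 2 higher after scaling to the 75th percentile), the lower ones numbering 4 without CD replicate 1, CD replicate 2, PR replicate 1, PR replicate 3, or PR replicate 4. Camk2a, the calcium-dependent kinase of synaptic plasticity, measured 13.46, 13.46, 13.21, and 13.02 in the CD mice and 12.93, 13.002, 12.73, and 12.73 in the PR mice and fell by 0.44 ± 0.13 (adjusted p = 0.029). Shank2, a scaffold of excitatory synapses, fell by 0.40 ± 0.12 (adjusted p = 0.027), and its other probe was called lower as well (-0.43). Homer3, a scaffold of Purkinje cells, rose by 0.48 ± 0.07 (adjusted p = 0.0010), as did Dlgap3 (0.28), while Dlg4 (PSD-95) differed by -0.22 (adjusted p = 0.0514). Among 30 glutamate receptor genes, 6 fell and 4 rose. The metabotropic receptor Grm4 rose by 0.43 ± 0.13 (adjusted p = 0.026), the kainate subunit Grik1 fell (-0.42), and the AMPA subunit Gria3 rose (0.36). Grm4's other probe differed by -0.01 and was not called. Gria1 (-0.16, adjusted p = 0.056) and Grin1 (-0.15, 0.44) were not called. Lower receptor genes numbered 3 without CD replicate 3, PR replicate 1, or PR replicate 3, and higher ones 1 without CD replicate 1 or PR replicate 4 and 2 without CD replicate 2, CD replicate 3, or CD replicate 4. GABA and glycine receptor genes were split, with 4 lower and 6 higher of 26. Gabra3 (-0.41) and Gabrg1 (-0.31) were among the lower ones, with Gabrg1's other probe called higher (0.42), and Gabra2 (0.44) was among the higher ones. Among 40 voltage-gated potassium channel genes, 4 fell and 8 rose, and the extremes were Kcnb2 (-0.80) and Kcnc2 (1.34), with Kcnip2 (0.50) the next highest. Over the fits that left out 1 array, the adjusted p went up to 0.077 for Camk2a (PR replicate 4), 0.070 for Shank2 (CD replicate 2), and 0.071 for Grm4 (PR replicate 4), past the limit of 0.05. Under 1 or more of the 5 scalings, no call was made for Dlgap3.

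Genes linked to autism in human genetics were on the lower side, with 10 of 33 lower, 2 higher, and a median of -0.13 (-0.20 to -0.08 over all settings). Foxp2, a transcription factor of cortical, striatal, and Purkinje neurons, measured 7.75, 7.84, 7.63, and 8.25 in the CD mice and 7.22, 7.16, 7.02, and 7.04 in the PR mice and fell by 0.76 ± 0.18 (adjusted p = 0.010). Its other probe differed by -0.23 and was not called. Kmt2a, a histone H3 methyltransferase, measured 6.33, 6.50, 6.47, and 6.46 in the CD mice and 5.85, 5.82, 5.60, and 5.95 in the PR mice and fell by 0.64 ± 0.09 (adjusted p = 7.8e-04). Neither gene had a PR value above a CD value. Chd8, a chromatin remodeler, fell by 0.26 ± 0.06 (adjusted p = 0.0061). The synaptic scaffold Shank3 (0.23, adjusted p = 0.067) was not called. The ubiquitin ligase subunit Cul3 was among the higher ones (0.25). Lower members numbered 6 without PR replicate 1. The list's probes had a median GC content of 36.7% against 41.7% over all measured genes, and its part was not tested.

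The genes most directly tied to amino acid supply were called on both sides. Of 29 genes of the amino acid response and the integrated stress response, 5 fell (3 without PR replicate 3) and 5 rose (3 without PR replicate 1 or PR replicate 3), or 10 lower and 5 higher after scaling to the 75th percentile, with a median of -0.000941. A CEBP-ATF element (TGATGCAA), the site bound by Atf4 with a CEBP partner, was found on either strand in the promoters of 5 of 25 members and 0.669% of all. It lay in 1 of the 4 fallen and 1 of the 4 risen members with a promoter, and their windows are printed to show that the same element stood before genes called in opposite directions. Capitals mark the element, here as its reverse complement, 110 bases before the start of Atf3 (chr1:191183334-191183583, minus strand) and 193 bases before that of Chac1 (chr2:119350992-119351241, plus strand), both on GRCm38.p6.
Atf3: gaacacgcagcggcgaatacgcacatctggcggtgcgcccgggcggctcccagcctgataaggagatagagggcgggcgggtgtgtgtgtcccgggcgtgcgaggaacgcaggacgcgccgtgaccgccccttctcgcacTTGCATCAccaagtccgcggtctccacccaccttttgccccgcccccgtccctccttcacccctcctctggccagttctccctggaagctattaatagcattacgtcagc
Chac1: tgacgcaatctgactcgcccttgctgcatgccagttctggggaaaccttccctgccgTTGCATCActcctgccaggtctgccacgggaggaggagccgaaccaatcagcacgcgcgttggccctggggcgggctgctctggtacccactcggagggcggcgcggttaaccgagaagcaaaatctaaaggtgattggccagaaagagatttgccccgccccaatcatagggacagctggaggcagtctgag

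Atf3, a stress-induced repressor, measured 7.87, 7.88, 7.82, and 7.91 in the CD mice and 7.22, 6.92, 6.89, and 7.31 in the PR mice and fell by 0.79 ± 0.09 (adjusted p = 1.9e-04). Chac1, a glutathione-degrading enzyme, rose by 0.26 ± 0.07 (adjusted p = 0.016). Atf4 itself differed by -0.04 (adjusted p = 0.71) and its target Asns, asparagine synthetase, by -0.03 (0.64), while Cebpb fell (-0.34) and Ddit3 (CHOP) rose (0.19). Slc7a5, the large neutral amino acid carrier, measured 12.92, 12.85, 12.85, and 11.95 in the CD mice and 13.44, 13.27, 13.42, and 13.22 in the PR mice and rose by 0.69 ± 0.20 (adjusted p = 0.024), with CD replicate 4 well below the other CD mice and its other probe at -0.23. Slc38a2, a glutamine and alanine carrier, measured 13.26, 12.99, 13.38, and 13.51 in the CD mice and 13.82, 13.72, 13.81, and 14.05 in the PR mice and rose by 0.57 ± 0.14 (adjusted p = 0.012). Over 32 amino acid transporter genes, 6 rose (3 without PR replicate 3) and 2 fell (4 without PR replicate 2 and 6 without CD replicate 4), with Slc1a5 (0.44) and Slc38a6 (0.42) among the rises and Slc36a1 (-0.53) and Slc3a1 (-0.44) the falls. Slc36a1's other probe differed by only -0.01 and was not called. The highest adjusted p with 1 array left out was 0.12 for Ddit3 (CD replicate 1), 0.058 for Slc7a5 (PR replicate 1), and 0.11 for Slc3a1 (PR replicate 4), past the limit of 0.05. The call was not made under all 5 scalings for Chac1, Ddit3, and Slc3a1.

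Protein synthesis genes were divided by class. Of 21 aminoacyl-tRNA synthetases, which charge tRNA, 5 rose and 1 fell (3 lower and 4 higher after scaling to the 75th percentile). Rars rose by 0.44 ± 0.08 (adjusted p = 0.0021), Mars1 rose (0.29), and Dars fell by 0.46 ± 0.12 (adjusted p = 0.015). Of 38 translation factors, 10 rose and 3 fell (13 lower and 7 higher after scaling to the 75th percentile). Eif4g2, a scaffold of cap-independent initiation, measured 12.71, 12.51, 12.88, and 12.87 in the CD mice and 13.15, 13.19, 13.19, and 13.31 in the PR mice and rose by 0.47 ± 0.09 (adjusted p = 0.0031). Eif2b5 rose by 0.47 ± 0.07 (adjusted p = 6.0e-04), and the elongation factors Eef1a1 (-0.33) and Eef2 (0.20) were called in opposite directions. Of 74 cytosolic ribosomal proteins, 10 fell (6 without PR replicate 1 or PR replicate 4) and 2 rose, against 50 lower and 0 higher after scaling to the 75th percentile, so how many of them were lower rests on the scaling. Rpl7a fell by 0.61 ± 0.05 (adjusted p = 7.2e-05) and Rpl4 fell next most (-0.49). These genes have many processed pseudogenes that a probe may also read. Of 75 mitochondrial ribosomal proteins, 17 fell and 8 rose (4 without CD replicate 1, PR replicate 3, or PR replicate 4 and 5 without CD replicate 2), or 29 lower and 5 higher after scaling to the 75th percentile, with a median of -0.08 (-0.14 to -0.06 over all settings). Mrps25 (-0.27) and Mrps18b (-0.26) fell most, Mrps5 (0.40) and Mrpl37 (0.36) rose most, and the other probes of Mrps25 and Mrps18b were positive. Scaling to the 75th percentile turned the medians of the synthetases (0.08 to -0.04) and of the translation factors (0.05 to -0.06), and moved that of the cytosolic ribosomal proteins from -0.03 to -0.22. With the least favourable array left out, the adjusted p reached 0.093 for Eef2 (PR replicate 4), past the limit of 0.05. No call under 1 or more of the 5 scalings was obtained for Eef2.

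Genes of the unfolded protein response, which matches chaperones of the endoplasmic reticulum to its load, were on the higher side: 6 of 21 rose (5 without PR replicate 1) and 0 fell (9 higher and 0 lower at an unadjusted p under 0.05 in limma, 4 and 0 by the Tukey test, and 2 lower and 3 higher after scaling to the 75th percentile), with a median of 0.11 (0.05 to 0.14). The ER stress response element (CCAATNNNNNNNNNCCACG) was found on either strand in the promoters of 8 of 18 members and in 0.153% of all, and the 8 split into 2 of the 5 risen members with a promoter and 6 of the 13 not called. The windows of the 2 risen genes show the element in capitals, 105 bases before the start of Dnajc3 (chr14:118937682-118937931, plus strand) and 98 bases before that of Pdia6 (chr12:17266339-17266588, plus strand), on GRCm38.p6.
Dnajc3: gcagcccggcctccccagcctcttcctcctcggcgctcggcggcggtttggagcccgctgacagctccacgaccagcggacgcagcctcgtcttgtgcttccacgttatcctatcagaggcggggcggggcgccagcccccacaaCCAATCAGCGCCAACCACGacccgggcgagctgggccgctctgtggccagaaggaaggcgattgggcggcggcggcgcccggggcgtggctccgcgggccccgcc
Pdia6: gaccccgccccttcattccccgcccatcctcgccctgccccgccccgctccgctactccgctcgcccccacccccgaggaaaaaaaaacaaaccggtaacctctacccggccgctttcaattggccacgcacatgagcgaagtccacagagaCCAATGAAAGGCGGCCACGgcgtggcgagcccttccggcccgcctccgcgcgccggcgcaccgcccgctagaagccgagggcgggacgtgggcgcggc

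Dnajc3, which restrains the eIF2 kinase Perk, measured 11.10, 11.12, 10.92, and 10.69 in the CD mice and 11.41, 11.43, 11.30, and 11.39 in the PR mice and rose by 0.42 ± 0.09 (adjusted p = 0.0050). Every PR mouse lay above every CD mouse. Pdia6, a disulfide isomerase, rose by 0.20 ± 0.05 (adjusted p = 0.015), and Atf6, a membrane-bound sensor of the response, rose by 0.29 ± 0.07 (adjusted p = 0.013). Further rises were those of Dnajb11 (0.28), Sel1l (0.20), and Dnajb9 (0.16), and Dnajb9's other probe was called lower (-0.41). The chaperone Hspa5 (BiP), a standard readout of the response, measured 15.40, 15.43, 15.42, and 15.22 in the CD mice and 15.46, 15.54, 15.26, and 15.49 in the PR mice and differed by 0.07 ± 0.07 (adjusted p = 0.47), and Xbp1 differed by 0.05 ± 0.06 (adjusted p = 0.61), so neither passed. Of 39 autophagy and lysosome genes, 11 rose and 0 fell (15 and 1 at an unadjusted p under 0.05 in limma, 10 and 0 by the Tukey test, and 5 lower and 9 higher after scaling to the 75th percentile), and 8 of the rises held under all 5 scalings. Sqstm1 (p62), a receptor of cargo for autophagy, measured 11.59, 11.62, 11.69, and 11.78 in the CD mice and 12.14, 11.99, 12.04, and 12.15 in the PR mice and rose by 0.41 ± 0.06 (adjusted p = 0.0011). Nbr1, a related receptor, rose by 0.48 ± 0.11 (adjusted p = 0.010), Becn1 rose (0.36), the proton pump subunit Atp6v1h rose by 0.59 ± 0.08 (adjusted p = 3.3e-04), and Tfeb, the transcription factor of lysosomal genes, differed by 0.01 (adjusted p = 0.94). After scaling to the 75th percentile the list median went from 0.09 to -0.02, so the list as a whole has no settled direction. Leaving out 1 array could raise the adjusted p to 0.070 for Dnajb11 (CD replicate 2) and 0.097 for Dnajb9 (PR replicate 1), past the limit of 0.05. At least 1 of the 5 scalings gave no call for Pdia6, Dnajb11, and Dnajb9.

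Cytosolic chaperones and the proteasome were mixed. Of 19 heat shock genes, 5 fell and 4 rose (2 without PR replicate 4): Hspa4 fell by 0.53 ± 0.12 (adjusted p = 0.0074), the heat shock factor Hsf2 fell (-0.36), the inducible Hspa1a fell (-0.32), and Hspb8 (0.34) and Chordc1 (0.33) rose. Of 34 proteasome genes, 6 rose and 2 fell (13 lower and 4 higher after scaling to the 75th percentile), with Psmd14 (0.35) and Psma7 (-0.37) as the extremes. Both medians turned after scaling to the 75th percentile (heat shock 0.09 to -0.09, proteasome 0.01 to -0.09). When 1 array was left out, the largest adjusted p was 0.10 for Hspb8 (PR replicate 4), past the limit of 0.05.

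In energy metabolism, glycolysis and the tricarboxylic acid cycle had more higher than lower calls before scaling to the 75th percentile, and the respiratory chain more lower than higher calls on both scales. Of 21 glycolysis genes, 8 rose and 1 fell (5 lower and 2 higher after scaling to the 75th percentile), but only 1 rise held under all 5 scalings. That gene, phosphoglycerate kinase (Pgk1), measured 15.67, 15.64, 15.71, and 15.79 in the CD mice and 16.09, 16.05, 16.03, and 16.11 in the PR mice and rose by 0.37 ± 0.04 (adjusted p = 2.3e-04). Lactate dehydrogenase (Ldha, 0.24) and hexokinase Hk1 (0.25) were called at smaller rises and Hk2 fell by 0.31 ± 0.06 (adjusted p = 0.0056). Of 20 genes of the tricarboxylic acid cycle, 6 rose and 0 fell (8 and 2 at an unadjusted p under 0.05 in limma, 5 and 0 by the Tukey test, and 5 lower and 4 higher after scaling to the 75th percentile). Idh3b, a subunit of isocitrate dehydrogenase, rose by 0.46 ± 0.07 (adjusted p = 0.0011), Dld rose by 0.32 ± 0.07 (adjusted p = 0.0052), and citrate synthase (Cs) differed by -0.03 (adjusted p = 0.63). Scaling to the 75th percentile moved the medians from 0.15 to -0.01 and from 0.09 to -0.06. In complex I, 6 of 37 genes fell (3 without CD replicate 1 or PR replicate 1) and 4 rose (2 without CD replicate 1 or PR replicate 4), from Ndufb3 (-0.22) to Ndufa10 (0.37). In complexes II to V, 8 of 39 fell (5 without PR replicate 4) and 3 rose (1 without PR replicate 3 or PR replicate 4), from Atp5e (-0.34) to Atp5b (0.28). Complex I had 22 lower and 2 higher after scaling to the 75th percentile (median -0.04 to -0.19), and complexes II to V had 26 lower and 0 higher after scaling to the 75th percentile (median -0.02 to -0.19). Over the fits that left out 1 array, the adjusted p went up to 0.065 for Hk1 (PR replicate 4) and 0.070 for Atp5b (PR replicate 4), past the limit of 0.05. The call was not made under all 5 scalings for Ldha, Hk1, and Atp5b.

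Folate and methionine cycles supply methyl groups, and folic acid was equal in both diets. Of 20 one-carbon genes, 4 rose and 2 fell. Of these, Mthfd1l, a mitochondrial folate enzyme, fell (-0.26), and Tyms (0.35), Gart (0.29), and Mthfd1 (0.19) rose. In the methionine cycle, 4 of 21 rose (2 without PR replicate 1) and 1 fell (3 lower and 5 higher after scaling to the 75th percentile). Ahcyl1 rose by 0.38 ± 0.06 (adjusted p = 0.0013) with its other probe higher too (0.29), whereas Ahcy, which hydrolyzes S-adenosylhomocysteine, fell by 0.17 ± 0.06 (adjusted p = 0.046) by its brightest probe and was higher by its 2 other probes (0.20 and 0.30). Of 24 genes that write, read, or erase DNA methylation, 6 fell and 3 rose (1 without CD replicate 1, PR replicate 1, PR replicate 3, or PR replicate 4). Tdg, a glycosylase of active demethylation, measured 8.46, 8.39, 8.44, and 8.39 in the CD mice and 7.62, 7.77, 7.56, and 7.56 in the PR mice and fell by 0.79 ± 0.08 (adjusted p = 8.6e-05), although its 2 other probes differed by only -0.13 and 0.02. Tet2, an enzyme that oxidizes methylcytosine, measured 10.28, 10.27, 10.15, and 9.96 in the CD mice and 9.62, 9.65, 9.63, and 9.67 in the PR mice and fell by 0.52 ± 0.11 (adjusted p = 0.0050), and its other probe was called lower (-0.25). The methyltransferases Dnmt3a (-0.25) and Dnmt1 (-0.15) fell by less, and the reader Mbd2 rose (0.27). The highest adjusted p with 1 array left out was 0.079 for Mthfd1l (PR replicate 1), 0.12 for Tyms (CD replicate 3), 0.10 for Ahcy (CD replicate 3), and 0.072 for Dnmt1 (PR replicate 3), past the limit of 0.05. No call under 1 or more of the 5 scalings was obtained for Tyms.

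Chromatin enzymes had some of the larger single differences. Of 36 histone modifiers, 6 fell and 8 rose. Suv39h1, a histone H3 methyltransferase, measured 8.60, 9.09, 8.39, and 8.38 in the CD mice and 7.71, 7.69, 7.62, and 7.51 in the PR mice and fell by 0.98 ± 0.14 (adjusted p = 5.1e-04). The acetyltransferase Kat2b measured 8.58, 8.25, 8.65, and 8.56 in the CD mice and 9.28, 9.19, 9.24, and 9.44 in the PR mice and rose by 0.77 ± 0.12 (adjusted p = 8.8e-04). In both genes the mice of the 2 diets did not overlap. The deacetylase Hdac2 rose by 0.57 ± 0.07 (adjusted p = 3.7e-04) and the demethylase Kdm6b fell (-0.28). Of 18 histone cluster genes, 3 fell (H4c8 -1.05, H2bu2 -0.48, H1f2 -0.30) and 1 rose (H2bc21 0.41), against 7 lower and 1 higher after scaling to the 75th percentile.

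In insulin, IGF, and mTOR signaling, 6 of 28 genes fell and 3 rose, all under all 5 scalings. Besides Foxo3, the receptor substrate Irs1 fell by 0.32 ± 0.07 (adjusted p = 0.0051) and the mTOR inhibitor Tsc2 fell by 0.36 ± 0.05 (adjusted p = 7.9e-04). Pik3ca, the catalytic subunit of the kinase downstream of the receptors, measured 9.30, 9.47, 9.61, and 9.44 in the CD mice and 10.02, 9.98, 10.08, and 10.14 in the PR mice and rose by 0.60 ± 0.07 (adjusted p = 2.8e-04). Igfbp4, an IGF-binding protein, rose by 0.53 ± 0.12 (adjusted p = 0.0074). The kinase Rps6kb1 (-0.26) and the growth hormone receptor Ghr (-0.24) were lower, with the other probes of Rps6kb1 positive, and the receptor Igf1r (-0.15, adjusted p = 0.096) and Mtor (-0.07, 0.40) were not called. The Wnt pathway had 8 lower and 6 higher genes of 30. Lower were the coreceptor Lrp5, the receptor Fzd3, which fell by 0.72 ± 0.16 (adjusted p = 0.0063), and, within the destruction complex, Gsk3b, which measured 14.21, 14.30, 14.03, and 13.95 in the CD mice and 13.50, 13.57, 13.38, and 13.35 in the PR mice and fell by 0.67 ± 0.09 (adjusted p = 4.8e-04), and Apc (-0.48). Other probes of Gsk3b differed by less, at -0.21 (called) and -0.03 (not called). Higher were the adaptors Dvl1 (0.46) and Dvl2 (0.31), and Dvl2's other probe was negative (-0.48). Beta-catenin (Ctnnb1) differed by 0.21 (adjusted p = 0.067). Lower Wnt genes numbered 4 without CD replicate 2 or PR replicate 4 and 5 without CD replicate 1 or PR replicate 3. Of 25 Notch and Hedgehog genes, 4 fell and 1 rose (4 lower and 4 higher after scaling to the 75th percentile): the receptor Notch2 fell by 0.68 ± 0.06 (adjusted p = 7.2e-05), Notch1 differed by -0.45 (adjusted p = 0.20), the ligand Shh rose by 0.42 ± 0.12 (adjusted p = 0.020), and Gli3 (-0.21) and Jag1 (-0.23) fell. With the least favourable array left out, the adjusted p reached 0.054 for Shh (PR replicate 4) and 0.066 for Gli3 (PR replicate 4), past the limit of 0.05.

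Glial classes were called on both sides. In astrocytes, 4 of 18 genes rose (2 without CD replicate 1 or PR replicate 4) and 1 fell, with 5 lower and 3 higher after scaling to the 75th percentile. Gfap, their intermediate filament, measured 13.49, 13.36, 13.45, and 13.35 in the CD mice and 13.81, 13.85, 13.89, and 13.84 in the PR mice and rose by 0.43 ± 0.07 (adjusted p = 9.9e-04), with its 2 other probes positive, while the water channel Aqp4 differed by -0.21 (adjusted p = 0.060) and Sox9 fell by 0.27 ± 0.06 (adjusted p = 0.0081). Of 20 myelin and oligodendrocyte genes, 5 rose and 1 fell (median 0.10, 0.06 to 0.13). Ugt8a, which makes the myelin lipid galactosylceramide, measured 10.34, 10.30, 10.46, and 10.64 in the CD mice and 11.02, 10.97, 11.17, and 11.11 in the PR mice and rose by 0.64 ± 0.09 (adjusted p = 7.3e-04), Mog rose by 0.29 ± 0.08 (adjusted p = 0.024), and Mbp (0.03, adjusted p = 0.80) was not called. Higher myelin genes numbered 2 without PR replicate 3 and 3 without CD replicate 1, CD replicate 3, CD replicate 4, PR replicate 1, PR replicate 2, or PR replicate 4, and 3 after scaling to the 75th percentile. In oligodendrocyte precursors, Sox6 (0.71), Cspg4 (0.34), Olig1 (0.26), and Olig2 (0.25) rose and Pdgfra fell (-0.18), out of 12 measured. Cspg4 is shared with the pericyte list. Among 18 microglial genes, 3 fell (5 without CD replicate 4 or PR replicate 2) and 2 rose (6 lower and 2 higher after scaling to the 75th percentile): Aif1 (-0.37) and Tyrobp (-0.23) on the lower side and Olfml3 (0.75) and C1qa (0.28) on the higher side, with Cx3cr1 at -0.24 (adjusted p = 0.055) and P2ry12 at 0.15 (0.31). Olfml3's other probe differed by only 0.09 and was not called. Blood cells were read by erythroid, granulocyte, and lymphocyte genes. Of 10 erythroid genes, 0 were lower and 2 higher, with 0 lower at an unadjusted p under 0.05 in limma and by the Tukey test. Car2 was among the 2 and is not particular to blood cells, so its rise is not a reading of blood. Of 7 granulocyte genes, 0 were lower and 0 higher, also at an unadjusted p and by the Tukey test. Of 4 lymphocyte genes, 1 was lower, Cd4. Its call was not made without CD replicate 2, CD replicate 4, PR replicate 2, PR replicate 3, or PR replicate 4. In each of these lists the mouse levels overlapped between the diets. After scaling to the 75th percentile, 0 erythroid genes were called higher. Interferon and MHC class I genes were called higher in 5 (3 without CD replicate 4, PR replicate 1, or PR replicate 2) and lower in 2 of 26, with Ifitm3 (0.45) and Iigp1 (-0.45) as the extremes. Leaving out 1 array could raise the adjusted p to 0.065 for Mog (PR replicate 1), 0.061 for Sox6 (CD replicate 1), and 0.065 for Pdgfra (CD replicate 1), past the limit of 0.05.

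In neuronal classes, calls fell on both sides. Glutamatergic genes had 4 higher (1 without CD replicate 1, CD replicate 2, PR replicate 1, or PR replicate 4 and 2 without CD replicate 3, CD replicate 4, or PR replicate 3) and 1 lower of 16, and the vesicular transporter Slc17a7 differed by 0.18 (adjusted p = 0.52). GABAergic genes had 3 lower and 3 higher (1 without CD replicate 1, CD replicate 2, PR replicate 1, PR replicate 3, or PR replicate 4) of 18, or 5 lower and 1 higher after scaling to the 75th percentile, where the interneuron transcription factor Lhx6 fell by 0.52 ± 0.12 (adjusted p = 0.0088), with another probe at 0.11, and the synthesis enzymes were at 0.23 (Gad1, adjusted p = 0.0049) and -0.13 (Gad2, 0.36). Purkinje cell genes had 3 lower (1 without CD replicate 1, CD replicate 3, or PR replicate 1 and 5 without CD replicate 4) and 1 higher of 12 (median -0.13, -0.18 to -0.10), or 6 lower and 1 higher after scaling to the 75th percentile, with calbindin (Calb1) at -0.31 and Pcp2 at -0.06 (adjusted p = 0.57). Striatal projection neuron genes had 5 higher (3 without CD replicate 1, CD replicate 4, PR replicate 3, or PR replicate 4) and 1 lower of 16 (median 0.12, 0.04 to 0.14), or 1 lower and 2 higher after scaling to the 75th percentile, among them Rgs9 (0.25) and, without a call under all 5 scalings, the dopamine-regulated phosphoprotein gene Ppp1r1b (0.18). The pan-neuronal median turned from 0.05 to -0.11 after scaling to the 75th percentile (from 1 lower and 4 higher to 5 and 1 of 16), as did that of the housekeeping genes (0.05 to -0.07, from 1 and 4 to 5 and 3 of 15). Choroid plexus genes (2 lower and 2 higher of 16), glucocorticoid-responsive genes (2 and 2 of 19), and clock genes (1 and 3 of 21) had few calls. In the choroid plexus list the lower genes numbered 0 without CD replicate 3, PR replicate 2, or PR replicate 4, the higher ones 0 without CD replicate 2, CD replicate 3, PR replicate 1, or PR replicate 4, and there were 0 lower and 2 higher after scaling to the 75th percentile. The glucocorticoid list had 7 lower and 2 higher after scaling to the 75th percentile (median -0.07 to -0.18), with its higher genes numbering 0 without PR replicate 3 or PR replicate 4, and the clock list had 1 without CD replicate 1, CD replicate 2, PR replicate 1, or PR replicate 4 for the higher genes. Transthyretin (Ttr) differed by 0.03 (adjusted p = 0.74), the glucocorticoid receptor Nr3c1 by -0.10 (0.28), and Nr1d1 of the clock rose by 0.41 ± 0.06 (adjusted p = 6.0e-04). Of 43 splicing genes, 10 rose and 6 fell (3 without PR replicate 4), or 11 lower and 9 higher after scaling to the 75th percentile, from Snrpf (-0.41) to Srsf6 (0.59). Srsf6's other probe differed by only 0.09 and Calb1's by only -0.06, and neither was called. When 1 array was left out, the largest adjusted p was 0.056 for Calb1 (PR replicate 1) and 0.079 for Ppp1r1b (PR replicate 3), past the limit of 0.05. The call was not made under all 5 scalings for Gad1 and Ppp1r1b.

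Some probes were detected in 1 diet only. On all 4 PR arrays and 0 CD arrays, 1552 probes were well above background, 1039 of them with a gene name, of which 276 were called. Among all measured genes, 15.7% were called higher. Probes picked by detection in 1 diet only lean toward that diet by the choice itself, so their calls and adjusted p are no separate evidence. On all 4 CD arrays and 0 PR arrays there were 2, the pituitary hormones Gh and Prl given above. The dimmest detected level was lower on the PR arrays, as given at the start, and its part in these counts was not tested. Of the named probes, only 5 of the 1039 had a bound over 2-fold. A fold against a group below background is a bound, computed against the dimmest detected probe. The largest were at least 5.14-fold for Eps8l1, an actin regulator, at least 3.36-fold for the olfactory receptor gene Olfr1173, at least 2.17-fold for Tmc2, a channel gene of hair cells, and at least 2.09-fold for Morn3. Tmc2 measured 4.83, 4.48, 4.57, and 5.06 in the CD mice, not well above background, and 6.89, 5.97, 5.92, and 5.88 in the PR mice (adjusted p = 0.0066).

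Other probes of the same genes were read as a check on names and on the choice of the brightest probe. Where a gene called lower had other measured probes, 441 of 677 (65.1%) were negative too, and for genes called higher 430 of 659 (65.3%) were positive, against 56.4% with the sign of the gene among genes not called. Among genes with another measured probe, that probe was called the opposite way in 74 of 545 lower and 71 of 582 higher genes, as for Gas5 and Gcm1 above. Among genes not called, another probe was called against the gene's sign in 476 of 2861. Meg3, Snhg11, Eomes, Shank2, and Tet2 had another probe called in the same direction.

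**Figure D5:**
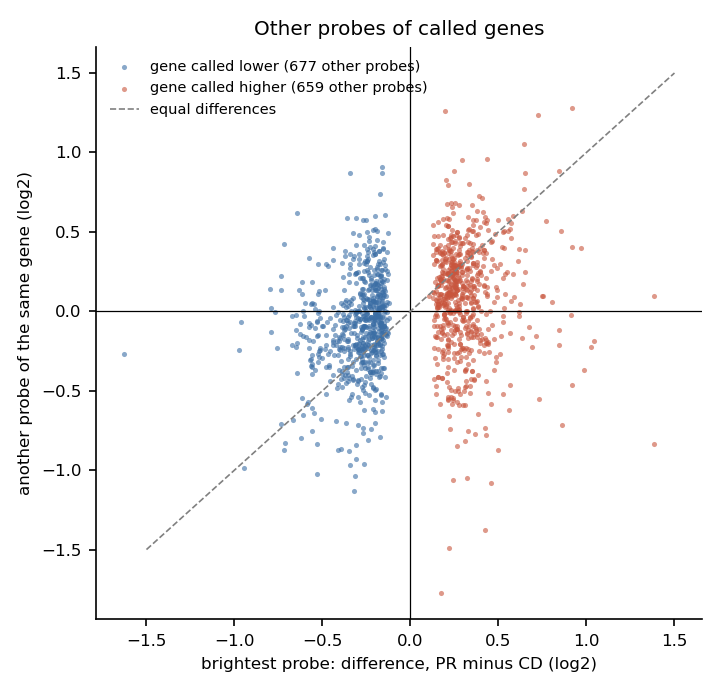
Second probes of called genes. Each point is a probe of a called gene other than its brightest, with the log2 difference of the brightest probe on the x axis and its own on the y axis, PR minus CD. Points in the lower left and upper right, with the dashed line marking equal differences, share the direction, 65.1% for lower and 65.3% for higher genes.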

How the data were processed

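Total RNA from whole brain was labelled with Cy3 and hybridized to 12 one-colour Agilent arrays (4 per diet), which the authors scanned and read with Feature Extraction 11.0.1.1 per the submitters' processing notes. The authors deposited the scanner output as linear intensities and a table of qspline-normalized intensities. Positions are those of the files' build, mm9. Here control and outlier spots were left out, spots of a probe were averaged, the intensities were normalized again by qspline over the 12 arrays (median absolute log2 difference of 0.000976 from the deposited table), and log2 values were fitted with limma 3.58.1 in R 4.3.3, with 1 term per diet. The contrast was PR minus CD, with Benjamini-Hochberg adjustment over 39429 probes, and genes were called at an adjusted p under 0.05. On an array, a probe counted as well above background when at least 50% of its spots were. A gene was read from its brightest probe well above background on all 8 PR and CD arrays. The 5 scalings were qspline, quantile normalization, the 75th percentile, normexp with an offset of 50, and the table as deposited. The Tukey test over the 3 diets, which the study's methods use, was an alternative.

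Probe names were updated by accession for 26160 of 39429 probes from a RefSeq gene table on GRCm38. Promoter sequences came from RefSeq on GRCm38.p6, where 11800 of 15390 measured genes matched. Arrays give intensities and no read depth, and the number of arrays limits the precision. The 71 gene lists and the genes named were chosen with earlier results of these data known. Named were the 12 largest called falls and the 12 largest called rises that did not overlap between diets and were called under all 5 scalings, up to 2 called falls and 2 called rises of each described list, textbook members of the lists, and the 4 largest bounds among probes detected in 1 diet only. Other called members were named after their values were seen, and some results are not reported here. The gene-wise test was tested on simulated data. Alternatives were the scalings, background correction, outlier spots, the filter on dim probes, the probe of a gene, the replicate block, the variance model, the arrays in the fit, the test and threshold, and leaving out each array. Other tools were Python 3.11.15, the R package data.table (version 1.17.8), and matplotlib 3.10.9.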

Additional observations from a re-analysis of the deposited data

Results flagged for a closer look

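Within a diet, a mouse was singled out when its gap to the nearest of the other 3 mice was larger, as a share of the range of all 4, than Dixon's critical value for 4 samples. This held in 31 of 654 groups of 4, or 4.74%, where chance alone gives about 5%. Values are log2 normalized intensities. Above the other mice of their diet were Aif1 in CD replicate 4 (10.834, others 10.574 to 10.585), Aqp4 in CD replicate 2 (12.573, others 12.335 to 12.354), Asns in CD replicate 4 (14.656, others 14.499 to 14.521), and Cd4 in PR replicate 1 (11.07, others 10.612 to 10.67). Also above were Egr1 in CD replicate 1 (14.634, others 14.476 to 14.48), Foxo3 in CD replicate 2 (6.6391, others 6.1726 to 6.2325), Masp2 in CD replicate 1 (5.6874, others 5.4886 to 5.5093), and Masp2 in PR replicate 1 (7.3354, others 6.3049 to 6.4231). Standing higher in the same way were Mrps25 in CD replicate 1 (13.146, others 13.006 to 13.023), ND2 in PR replicate 1 (16.391, others 16.104 to 16.153), Pcp2 in CD replicate 4 (15.218, others 15.018 to 15.034), and Snhg7 in PR replicate 2 (8.7812, others 8.5607 to 8.5965). The remaining high values were those of Snora47 in PR replicate 3 (8.3841, others 8.0548 to 8.0991) and Sox6 in PR replicate 2 (7.1105, others 6.4518 to 6.5105). Below the others were Apc in PR replicate 4 (7.6453, others 7.7795 to 7.8036), ATP8 in CD replicate 1 (14.495, others 14.963 to 15.04), Car2 in CD replicate 2 (13.878, others 14.064 to 14.097), and Csn3 in CD replicate 4 (11.033, others 11.857 to 12.006). Also below were Dvl1 in PR replicate 1 (13.183, others 13.333 to 13.356), Foxj1 in CD replicate 2 (10.152, others 10.251 to 10.255), Ghr in CD replicate 2 (9.6317, others 9.8411 to 9.879), and Hspa5 in CD replicate 4 (15.223, others 15.401 to 15.426). Standing lower in the same way were Igfbp4 in PR replicate 2 (7.9807, others 8.1411 to 8.1625), Iigp1 in PR replicate 1 (6.8487, others 6.9369 to 6.943), Mest in CD replicate 2 (10.246, others 10.431 to 10.453), and Nsdhl in PR replicate 2 (9.3875, others 9.5808 to 9.6034). The remaining low values were those of Rpl7a in PR replicate 2 (14.67, others 14.719 to 14.724), Shank3 in CD replicate 4 (11.711, others 11.824 to 11.844), and Slc7a5 in CD replicate 4 (11.95, others 12.847 to 12.917). As the mean deviation of a list from the 8-array mean, the Notch and Hedgehog pathway genes of CD replicate 2 stood at 0.0969 (others -0.00135 to 0.0139) and the pericyte and smooth muscle genes of CD replicate 3 stood at -0.0644 (others -0.0428 to -0.0405).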

How the results depend on the processing

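Against 2018 lower and 2415 higher genes, the lower count was 1297 by the methods' Tukey test. Without a filter on dim probes it was 3469 (3119 higher, 52.7% of calls lower). Applied to the limma fit of the measured genes, a limit of 2-fold at an adjusted p under 0.0001 left 2 lower and 3 higher genes. The study put these limits on its Tukey test, so these counts do not repeat its gene lists, which are longer. Scaling to the 75th percentile gave 2888 lower and 2275 higher (55.9% lower) and shared 86.4% of the calls. With 1 array left out, the lower count ran from 1392 (without PR replicate 4) to 2173 (without CD replicate 4) and the higher count from 1767 to 2458 (the same arrays), and 70% of the calls were shared without PR replicate 4. The other settings kept both counts within 1.5 times. The replicate numbers did not pair the samples: same-numbered CD and PR arrays correlated at -0.063, -0.0102, 0.00958, and 0.123 over 23758 probes, and with the replicate block there were 1719 lower and 2233 higher genes, sharing 84.8% of the calls and with 5 in place of 10 lower immediate early genes, 2 in place of 4 lower olfactory bulb genes, 5 in place of 8 lower genes each in the imprinted and Wnt lists, and 3 in place of 5 higher interferon genes. Of 228 called genes named, 150 were called in the same direction under every setting run, 56 were not with at least 1 array left out, and 56 were not under at least 1 other setting. Averaging all bright probes of a gene turned the sign of Ahcy (to 0.107), Dnajb9 (-0.128), Dvl2 (-0.0844), Fdft1 (-0.157), Gabrg1 (0.0545), Gas5 (0.539), Gnas (-0.0998), and Rps6kb1 (0.0369), whose probes disagree, and the 75th-percentile scaling that of Peg13 (-0.0241). Of 55 list medians, 29 kept their sign under every setting. Each diet lay on 1 slide, so no setting separates slide from diet. In simulated data of this design with 39429 probes, the fit recovered 39.7% of changes of 0.3, 69.7% of 0.5, and 92.4% of 1 (log2). There were 12 false calls. Only 68, 66, and 66 probes were changed at these sizes, far fewer than were called in the real data. The adjusted limit was therefore stricter in the simulation, and these shares do not give the power of the real comparison.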

Other observations

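Several groups of transcripts outside the lists above were read after their values were seen. Of 12 measured small structural RNAs, among them RNAs of splicing and of ribosome and tRNA processing, 5 fell by limma at an adjusted p under 0.05, and 11 had a negative difference (median -0.61). The 5 were Rnu3b1 (-1.14), Rprl2 (-0.98) and Rpph1 (-0.98) of RNase P, Snora47 (-0.97), and the U1 gene Rnu1b6 (-0.77), and Rnu7 was at 0.08 (adjusted p = 0.79). Of the mitochondrially encoded proteins, ND6 fell by 1.00 (adjusted p = 0.0025), ND3 fell by 0.48 (0.0031), COX1 fell by 0.27 (0.017), and COX2 fell by 0.25 (0.018). In the same genome ND1 rose by 0.58 (adjusted p = 0.0010), ND4L rose by 0.54 (0.0045), ND5 rose by 0.38 (0.0027), and ATP8 rose by 0.39 (0.027), the last not under all 5 scalings, while CYTB (0.05), COX3 (-0.07), ND4 (-0.05), and ND2 (0.23) were not called. Rnu1b6 was not called without PR replicate 4, and ATP8 not without PR replicate 1, PR replicate 3, or PR replicate 4. Among genes annotated as pseudogenes, 21.8% of 454 were lower and 10.8% higher, against 12.8% and 15.9% of 14320 protein-coding genes. On the X chromosome, 17.2% of 558 genes were lower and 12% higher.

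Cerebellar granule cell genes had 3 higher of 14, Cbln3 (0.43), Neurod1 (0.31), and Grin2c (0.28, not under all 5 scalings), and 0 lower (3 at an unadjusted p under 0.05 in limma, 0 by the Tukey test). Another probe of Neurod1 was called lower (-0.24). Without CD replicate 1 neither Neurod1 nor Grin2c was called, and other single arrays did the same. Cholesterol synthesis genes had 2 lower, Hmgcs1 (-0.21) and Mvk (-0.18), and 2 higher, Nsdhl (0.47) and Fdft1 (0.28), of 25, with Hmgcs1 not called without PR replicate 4. Fdft1's other probe was called lower (-0.59), and the other probes of Nsdhl (-0.18) and Mvk (0.02) also had the opposite sign. Protocadherins and cadherins had 5 lower (3 without PR replicate 1) and 1 higher of 28, fatty acid genes 4 and 5 of 28, thyroid hormone and retinoid genes 5 and 3 of 26, sodium and calcium channels 1 and 2 of 26, other potassium channels 4 and 3 of 24, and neurotrophin genes 1 and 2 of 18. Complement and inflammation genes had 3 lower and 2 higher of 17, meningeal and fibroblast genes 2 and 2 of 16, dopamine and serotonin receptors 1 and 2 of 15, hippocampal genes 1 and 3 of 13, thalamic genes 1 and 2 of 11, and cholinergic neuron genes 3 and 1 of 10. Monoamine neuron genes had 2 lower and 0 higher of 14 (1 higher at an unadjusted p under 0.05 in limma, 0 by the Tukey test). Skeletal muscle genes had 0 lower and 0 higher of 10, with 0 of either at an unadjusted p under 0.05 in limma or by the Tukey test.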
